A study of Mus musculus with 19 samples.

Results

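The 8 genes described here are the core genes of a neuron that uses acetylcholine: the enzymes Chat and Ache, the transporters Slc18a3, Slc5a7 and Slc10a4, the surface receptor Ngfr, and the transcription factors Lhx8 and Gbx2. They were chosen by gene symbol, and all 8 were found among the 49592 genes counted. All 8 also lay among the 21513 genes that passed the filter on low counts. Counts came from the striatum of 19 male mice, 4 months old, in 4 groups. Every mouse, controls included, carried Cre recombinase driven by the dopamine D2 receptor gene (D2R-Cre) together with a floxed Cas9-EGFP allele, so that Cas9 is made in D2 receptor cells. The medial prefrontal cortex (mPFC) received AAV5 with D2R-sgRNA, which guides Cas9 to Drd2, the receptor gene, in the knockout mice, and AAV5 syn-mCherry in the control mice. From 3 weeks after surgery each mouse had saline on 5 days, and on day 9 either saline again or amphetamine at 3 mg/kg. With 5 mice each in the saline control, amphetamine control and saline knockout groups, the amphetamine knockout group had 4. Tissue was taken 90 min after the last amphetamine injection, a time the labels do not repeat for the saline mice. The title of the series names striatal cholinergic interneurons as cells that the prefrontal receptor regulates, and the labels call the tissue only striatum.

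Cholinergic interneurons are a small share of striatal neurons, yet their branching axons release acetylcholine throughout the striatum, where it acts on muscarinic and nicotinic receptors of projection neurons, interneurons and dopamine axons. Chat joins choline and acetyl-CoA into acetylcholine, the vesicular transporter encoded by Slc18a3 loads it into synaptic vesicles, Ache breaks it down outside the cell, and the choline transporter encoded by Slc5a7 returns the choline to the terminal. Slc10a4 encodes a protein of cholinergic and monoaminergic vesicles. Ngfr encodes the p75 neurotrophin receptor, a surface marker of basal forebrain cholinergic neurons, which lie next to the striatum. Lhx8, a LIM-homeodomain factor, is needed for forebrain cholinergic neurons to form, and Gbx2 is a homeobox factor of a part of the developing striatal cholinergic interneurons.

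Chat and Slc18a3 form a shared locus, which bears on how their counts can be read. In the GRCm39 coordinates of the deposited tables, Chat (ENSMUSG00000021919.9) spans chr14:32130160-32187946 and Slc18a3 (ENSMUSG00000100241.2) lies inside it at chr14:32184395-32186807. In the GENCODE annotation of GRCm38, both genes run on the minus strand, and Slc18a3 is a single exon of 2413 bases within intron 1 of the 16-exon transcript Chat-201. No Chat exon (0) overlaps it, so exon reads of the 2 genes are separate in that annotation, whereas reads of unspliced Chat RNA can fall on Slc18a3. The RefSeq start sites of Chat and Slc18a3 are 1059 bases apart. The long noncoding gene Gm2990 overlaps the 5′ end of Chat on the other strand and had 15 to 80 counts per library, against 266 to 2089 for Chat. Overlapping noncoding genes were also present at Ache (Gm42456, 78 to 223 counts) and at Gbx2 (D130058E05Rik, 24 to 152 counts), and the strand setting of the counting is not given in the sources used here.

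The other 6 genes lie apart from each other in GRCm39. Slc5a7 (ENSMUSG00000023945.8) is at chr17:54580618-54606062, Ache (ENSMUSG00000023328.15) at chr5:137285781-137292728 and Slc10a4 (ENSMUSG00000029219.11) at chr5:73164226-73170298. Ngfr (ENSMUSG00000000120.7) is at chr11:95459644-95478561, Lhx8 (ENSMUSG00000096225.8) at chr3:154011931-154036296 and Gbx2 (ENSMUSG00000034486.9) at chr1:89855678-89858901.

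The promoters of all 8 genes were matched in the RefSeq table (GRCm38.p6), as windows from 250 bases before to 50 bases after the start site. The search covered 4 short motifs on both strands. TAATTA is the core of LIM-homeodomain sites and its own reverse complement, TCAGCAC and GGACAG are the left and right parts of the RE1 element bound by the repressor REST, and TATAAA is the TATA box. No match of a motif overlapped a match of another in the 8 windows. Of 32851 windows, 5.29% held TAATTA, 5.12% TCAGCAC, 22.2% GGACAG and 13.6% TATAAA. Among the 8 genes, TATAAA was present only in Slc5a7, 187 bases before the start site. GGACAG was present only in Lhx8, where it reads CTGTCC from 97 bases before the start site, and GGACAG from 4 bases before it, crossing into the transcript. TAATTA and TCAGCAC were in none (0) of the 8 windows. The 250 bases before the start site are shown for Chat and Slc18a3, which share the locus, and for Slc5a7 and Lhx8, which hold a motif. They are written 5′ to 3′ on the minus strand, on which all 4 genes run, with motif letters in capitals. The second GGACAG of Lhx8 is shown only up to the start site. The windows are chr14:32465910-32466159 (Chat), chr14:32464851-32465100 (Slc18a3), chr17:54299035-54299284 (Slc5a7) and chr3:154330561-154330810 (Lhx8).
Chat: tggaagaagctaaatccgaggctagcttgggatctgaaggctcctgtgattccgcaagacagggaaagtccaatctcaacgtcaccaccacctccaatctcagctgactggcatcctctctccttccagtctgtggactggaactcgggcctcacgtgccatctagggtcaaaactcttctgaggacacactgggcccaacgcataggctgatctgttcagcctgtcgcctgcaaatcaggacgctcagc
Slc18a3: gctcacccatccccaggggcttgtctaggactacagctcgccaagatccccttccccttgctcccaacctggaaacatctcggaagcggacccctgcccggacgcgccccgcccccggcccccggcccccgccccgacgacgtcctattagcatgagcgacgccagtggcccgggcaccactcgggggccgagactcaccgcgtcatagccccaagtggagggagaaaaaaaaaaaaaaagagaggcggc
Slc5a7: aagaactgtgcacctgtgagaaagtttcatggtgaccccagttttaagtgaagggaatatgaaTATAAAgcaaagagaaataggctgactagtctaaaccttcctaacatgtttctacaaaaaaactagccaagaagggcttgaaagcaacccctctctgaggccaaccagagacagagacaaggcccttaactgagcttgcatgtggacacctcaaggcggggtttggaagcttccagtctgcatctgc
Lhx8: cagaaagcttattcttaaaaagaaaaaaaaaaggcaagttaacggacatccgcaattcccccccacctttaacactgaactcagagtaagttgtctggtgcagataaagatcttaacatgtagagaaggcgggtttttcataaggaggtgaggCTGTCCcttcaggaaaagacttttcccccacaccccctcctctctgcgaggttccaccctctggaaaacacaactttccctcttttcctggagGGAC
The share of G and C in the 300-base windows was 55.7% for Chat, 67% for Slc18a3, 44.7% for Slc5a7 and 47% for Lhx8, with a median of 52.7% over all windows.

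Libraries held between 57003408 and 85536346 counts, so that a level of 1 CPM is at least 57 counts. CPM here is a count scaled by the library total and a normalisation factor (TMM). Markers of striatal projection neurons were present in every library, with a summed level from 1336 to 5210 CPM over 10 genes. Drd2 ranged from 34.1 to 200 CPM in striatum, which does not check the knockout, since the guide RNAs were aimed at the prefrontal cortex and only striatum was sequenced. By distance on the first 4 principal components, the 5 libraries farthest out were saline knockout mouse 3, saline control mouse 5, amphetamine knockout mouse 3, amphetamine control mouse 3 and amphetamine knockout mouse 2. The labels name each library as a separate mouse. Library 7 of the amphetamine knockout mice, which the authors left out of their own comparison, is not analysed here.

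Between genes, levels were compared per length with the authors' deposited FPKM (fragments corrected for gene length and sequencing depth). Ache, the degrading enzyme, had the highest level, with a median of 24.8 FPKM (range 15.5 to 34.3 over 19 libraries), and ranked first of the 8 in 19 of 19 libraries. Lhx8 (median 9.48 FPKM, 3.25 to 15.3), Slc5a7 (9.26, 2.26 to 11.1) and Slc10a4 (8.52, 2.55 to 10.7) followed close together: Lhx8 was above Slc5a7 in 12 of 19 libraries, and Slc5a7 above Slc10a4 in 15 of 19. Slc10a4 was above Chat in all 19. Chat (6.59, 1.31 to 8.72) and Ngfr (6.01, 1.15 to 10.5) were again close, with Chat higher in 13 of 19 libraries. Slc18a3 had a median of 3.75 FPKM (0.893 to 5.91), below Ngfr in 18 of 19. Gbx2 was the lowest in 19 of 19, at 1.18 FPKM (0.528 to 1.87). Per length, the transcript of the synthetic enzyme was therefore less abundant than that of the choline transporter and of the degrading enzyme, and more abundant than that of the vesicular transporter from the same locus.

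**Figure D1:**
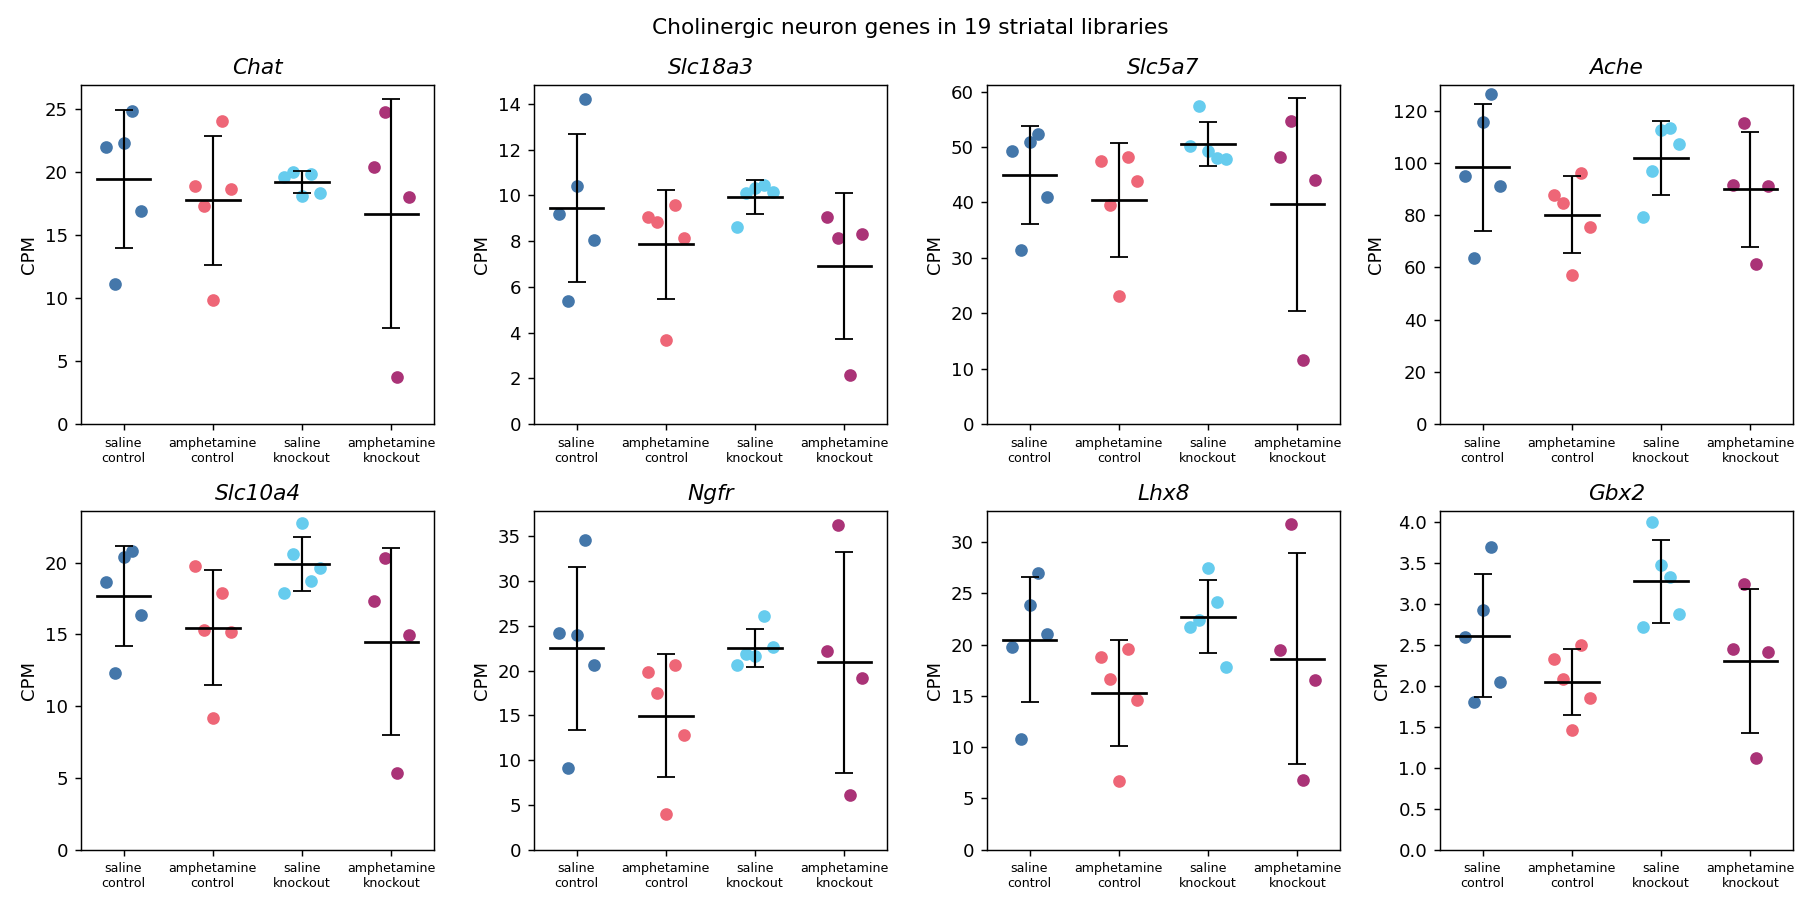
Levels of the 8 genes in CPM (y axis, linear and starting at 0, a separate scale per gene) for each mouse in the 4 groups; points are mice, the horizontal bar is the group mean and the error bar is 1 SD. In each gene the lowest points belong to amphetamine knockout mouse 3, amphetamine control mouse 3 and saline control mouse 2. For Chat the saline knockout mice lie close together, from 18.1 to 20.0 CPM. For Gbx2 their SD (0.507 CPM) is above that of the amphetamine control mice (0.405 CPM).

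Chat, the synthetic enzyme, was at 22.0, 11.1, 22.4, 24.9 and 16.9 CPM in saline control mice 1 to 5, and at 18.9, 17.3, 9.85, 24.1 and 18.7 CPM in the amphetamine control mice. In the saline knockout mice it was 19.6, 20.0, 18.1, 19.9 and 18.4 CPM, and in the amphetamine knockout mice 20.4, 24.8, 3.71 and 18.0 CPM. All 4 groups overlapped. The saline knockout mice lay close together, while saline control mouse 2, amphetamine control mouse 3 and amphetamine knockout mouse 3 were the lowest of their groups, the last of them the lowest of all 19.

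Slc18a3, which fills vesicles with acetylcholine, was at 9.20, 5.38, 10.4, 14.2 and 8.06 CPM in the saline control and 9.08, 8.84, 3.68, 9.59 and 8.12 CPM in the amphetamine control mice. It was at 8.62, 10.1, 10.3, 10.4 and 10.1 CPM in the saline knockout and 9.06, 8.15, 2.13 and 8.31 CPM in the amphetamine knockout mice. The same 3 mice as for Chat were lowest, and saline control mouse 4 was the highest of all for both genes of the locus. As a ratio of FPKM within a library, Slc18a3 over Chat kept to 0.390 to 0.681, with a median of 0.565, while each gene alone varied by more than 6-fold between its lowest and highest library (6.65 for Chat and 6.61 for Slc18a3). Group means of the ratio were 0.573 ± 0.0658 in saline control (SD, n = 5), 0.521 ± 0.0663 in amphetamine control (n = 5), 0.613 ± 0.0601 in saline knockout (n = 5) and 0.536 ± 0.119 in amphetamine knockout mice (n = 4), and these ranges overlapped.

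Slc5a7, the high-affinity choline transporter, was at 49.2, 31.4, 50.9, 52.4 and 41.0 CPM in the saline control and 47.5, 39.5, 23.2, 48.1 and 43.9 CPM in the amphetamine control mice. It was at 50.1, 57.3, 49.3, 48.0 and 47.9 CPM in the saline knockout and 48.2, 54.7, 11.6 and 44.0 CPM in the amphetamine knockout mice. The groups overlapped, with saline knockout mouse 2 the highest and amphetamine knockout mouse 3 the lowest of all 19. Slc10a4, the vesicle protein, was at 18.6, 12.3, 20.4, 20.8 and 16.3 CPM in the saline control, 19.8, 15.3, 9.16, 17.8 and 15.2 CPM in the amphetamine control, 17.9, 20.6, 22.7, 18.7 and 19.6 CPM in the saline knockout, and 17.4, 20.3, 5.32 and 15.0 CPM in the amphetamine knockout mice. Its groups overlapped too, and its lowest mouse in each of the control groups and in the amphetamine knockout group was that of Slc5a7. Per length, Slc5a7 stayed between 1.10 and 1.72 times Chat, and Slc10a4 between 1.01 and 1.94 times Chat, with the highest ratio of both in amphetamine knockout mouse 3.

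Ache, the enzyme that ends the acetylcholine signal and that cells other than cholinergic neurons also make, varied less. It was at 94.9, 63.4, 116, 126 and 91.3 CPM in the saline control and 87.8, 84.7, 57.0, 96.1 and 75.6 CPM in the amphetamine control mice. It was at 79.5, 96.7, 112, 113 and 107 CPM in the saline knockout and 91.7, 115, 61.4 and 91.1 CPM in the amphetamine knockout mice. The groups overlapped, and the spread from the lowest to the highest of the 19 was 2.22-fold in CPM, against 6.71-fold for Chat. The ratio of Ache over Chat per length was 3.10 to 4.81 in 18 libraries and 12.8 in amphetamine knockout mouse 3, where Chat was lowest and Ache was not.

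Ngfr, the p75 receptor, varied most. It was at 24.2, 9.10, 23.9, 34.6 and 20.6 CPM in the saline control and 19.9, 17.5, 3.97, 20.6 and 12.8 CPM in the amphetamine control mice. It was at 20.6, 21.9, 21.6, 26.1 and 22.6 CPM in the saline knockout and 22.1, 36.2, 6.15 and 19.2 CPM in the amphetamine knockout mice. Its lowest level was in amphetamine control mouse 3 and its highest in amphetamine knockout mouse 2, a 9.12-fold spread, and the groups overlapped. Ngfr over Chat per length ran from 0.335 in amphetamine control mouse 3 to 1.37 in amphetamine knockout mouse 3, so the gene did not keep a fixed ratio to Chat.

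Lhx8, the LIM-homeodomain factor, was at 19.8, 10.8, 23.9, 27.0 and 21.0 CPM in the saline control and 18.8, 16.7, 6.74, 19.6 and 14.6 CPM in the amphetamine control mice. It was at 21.7, 22.4, 27.5, 24.2 and 17.8 CPM in the saline knockout and 19.4, 31.8, 6.79 and 16.5 CPM in the amphetamine knockout mice. As for Ngfr, amphetamine control mouse 3 was lowest, amphetamine knockout mouse 2 highest, and the groups overlapped. Gbx2, the homeobox factor, was at 2.60, 1.80, 2.92, 3.70 and 2.04 CPM in the saline control, 2.33, 2.09, 1.47, 2.50 and 1.85 CPM in the amphetamine control, 2.72, 4.00, 3.48, 3.33 and 2.88 CPM in the saline knockout, and 2.46, 3.25, 1.12 and 2.41 CPM in the amphetamine knockout mice. Its groups overlapped, and the highest mouse was saline knockout mouse 2.

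Amphetamine control mouse 3, amphetamine knockout mouse 3 and saline control mouse 2 were the 3 lowest of the 19 libraries for each of the 8 genes. The SD of log2 CPM within groups was 0.660 for Chat, 0.598 for Slc18a3, 0.545 for Slc5a7, 0.480 for Slc10a4, 0.321 for Ache, 0.796 for Ngfr, 0.601 for Lhx8 and 0.407 for Gbx2. The median over the genes tested was 0.240, and 62.3% (Ache) to 96.3% (Ngfr) of those genes had a lower SD than the gene named. Variation between mice of the same group made up 64.7% (Gbx2) to 90.7% (Chat) of the total variance of each gene.

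The first comparison asks how the genes responded to amphetamine in control mice. None of the 8 passed the edgeR quasi-likelihood test (adjusted p under 0.05, Benjamini-Hochberg over all genes tested), in which 0.00465% of the 21513 genes were called. None (0 of 8) had an unadjusted p under 0.05, against 11.8% of genes, and in 0 of 8 were the groups without overlap, against 3.9% of genes. DESeq2 and limma voom also called 0 of 8, against 1.13% and 0.00465% of genes. All 8 log2 fold changes were below 0, as were 51.6% over all genes, with a median of -0.28 for the 8 genes and -0.01 over all genes. In bulk tissue, fewer cholinergic cells and less RNA per cell cannot be told apart. Markers of other neurons differed between the same groups: 10 striatal projection neuron genes summed to 4053 to 5210 CPM after amphetamine and 2695 to 3880 CPM after saline, and 9 septal and pallidal genes to 158 to 323 CPM and 291 to 494 CPM. Their part in the result was not tested.

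Among the enzymes, Ache averaged 80.2 ± 14.9 CPM after amphetamine and 98.4 ± 24.3 CPM after saline (SD, n = 5 each), a log2 fold change of -0.29 ± 0.179 (SE, 95% interval -0.67 to 0.08, adjusted p = 0.549). Chat had -0.13 ± 0.337 (interval -0.84 to 0.58, adjusted p = 0.923), so that a fold change from 0.559 to 1.49 lay within its interval. Among the transporters, Slc18a3 averaged 7.86 ± 2.39 against 9.46 ± 3.25 CPM (-0.27 ± 0.311), Slc5a7 40.5 ± 10.2 against 45.0 ± 8.79 CPM (-0.15 ± 0.284) and Slc10a4 15.4 ± 4.00 against 17.7 ± 3.47 CPM (-0.20 ± 0.255). Their adjusted p-values were 0.794, 0.885 and 0.821. Ngfr had the largest difference and the widest interval, with 15.0 ± 6.85 against 22.5 ± 9.13 CPM and a log2 fold change of -0.59 ± 0.424 (interval -1.48 to 0.31, adjusted p = 0.631). The factors Lhx8 (15.3 ± 5.15 against 20.5 ± 6.11 CPM) and Gbx2 (2.05 ± 0.405 against 2.61 ± 0.751 CPM) had -0.42 ± 0.327 and -0.35 ± 0.235, with adjusted p-values of 0.658 and 0.591.

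These values leaned on single mice. Without amphetamine control mouse 3, Chat turned to 0.02, Slc5a7 was at -0.01, Slc10a4 at -0.06, Slc18a3 at -0.09, Ngfr at -0.35 and Lhx8 at -0.24. Without saline control mouse 4, Chat was at -0.03, Slc18a3 at -0.07, Slc5a7 at -0.09, Slc10a4 at -0.13, Ache at -0.19, Ngfr at -0.38, Lhx8 at -0.30 and Gbx2 at -0.20. Without saline control mouse 2 the differences were larger: Ache was at -0.41 (adjusted p = 0.251, the lowest of the 8 genes under any setting), Ngfr at -0.79, Lhx8 at -0.58, Slc18a3 at -0.41, Slc10a4 at -0.30, Chat at -0.27, Slc5a7 at -0.26 and Gbx2 at -0.46. In the authors' deposited table for this comparison, 795 of 18863 genes (4.21%) had an adjusted p under 0.05 and 0 of the 8 did, with values from 0.406 to 0.846.

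In the knockout mice, amphetamine was compared with saline in 4 and 5 animals. None of the 8 genes was called by edgeR, where 0.00465% of all genes were, and 0 of 8 had an unadjusted p under 0.05, against 12.1% of genes. In 0 of 8 were the groups without overlap, against 5.07%. DESeq2 and limma voom called 0 of 8, against 0.485% and 0.0139% of genes. At an unadjusted p under 0.05, DESeq2 had 1 of 8 (Gbx2), against 12.9% of all genes, and voom 2 of 8 (Gbx2 and Slc10a4), against 11.8%. All 8 log2 fold changes were below 0 (51.1% over all genes), with a median of -0.32, against -0.01 over all genes.

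The low-abundance factor Gbx2 came closest to the threshold, at 2.31 ± 0.882 CPM after amphetamine (SD, n = 4) and 3.28 ± 0.507 CPM after saline (n = 5), a log2 fold change of -0.51 ± 0.248 (interval -1.02 to 0.01). By edgeR its unadjusted p = 0.0545 and its adjusted p = 0.421. The authors' deposited table gave -0.50 with an SE of 0.257, a p of 0.0523 and an adjusted p of 0.466 for the same gene. Slc18a3 averaged 6.91 ± 3.21 against 9.92 ± 0.744 CPM (-0.52 ± 0.332, adjusted p = 0.527). Slc10a4 averaged 14.5 ± 6.50 against 19.9 ± 1.88 CPM (-0.46 ± 0.271, adjusted p = 0.499) and Slc5a7 39.6 ± 19.2 against 50.5 ± 3.92 CPM (-0.35 ± 0.302, adjusted p = 0.643). The SDs of the 3 transporters were larger in the amphetamine group, which holds mouse 3, than in the saline group. Chat averaged 16.7 ± 9.11 against 19.2 ± 0.889 CPM, a log2 fold change of -0.20 ± 0.358 (interval -0.95 to 0.55, adjusted p = 0.844). Ache had -0.18 ± 0.190, Lhx8 -0.29 ± 0.347 and Ngfr -0.11 ± 0.447, with adjusted p-values of 0.715, 0.756 and 0.939.

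Single mice moved these values both ways. Without amphetamine knockout mouse 3 Chat turned to 0.13 and Ngfr to 0.20, while Slc18a3 was at -0.22, Slc5a7 at -0.05, Ache at -0.04, Slc10a4 at -0.18, Lhx8 at -0.01 and Gbx2 at -0.28. Without amphetamine knockout mouse 2, which had the highest Ngfr and Lhx8, Chat was at -0.45, Ngfr at -0.51, Lhx8 at -0.67, Slc10a4 at -0.67, Slc5a7 at -0.55, Slc18a3 at -0.61, Ache at -0.32 and Gbx2 at -0.72. Of 19699 genes in the authors' deposited table, 131 (0.665%) had an adjusted p under 0.05. None (0) of the 8 did, with values from 0.466 to 0.938.

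**Figure D2:**
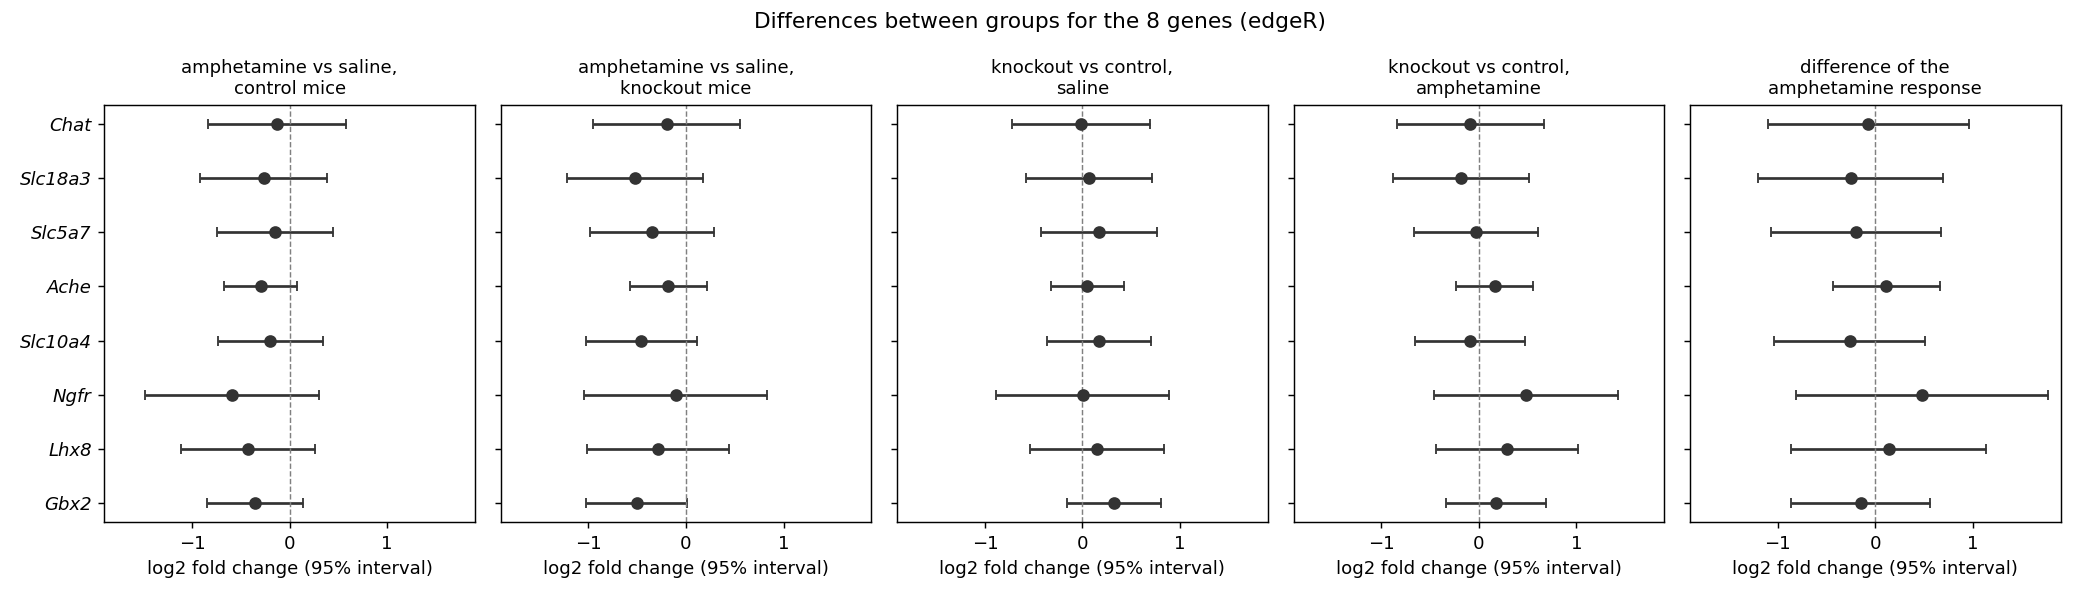
Log2 fold changes from edgeR for the 8 genes (x axis, points) with 95% intervals (bars) in the 5 comparisons, 1 panel each; the dashed line marks 0. All 40 intervals span 0, and the longest in each panel belongs to Ngfr.

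The third comparison asks whether deleting the D2 receptor in prefrontal cells went with another level of these genes in saline-treated striatum. It shares its groups with the comparisons already given. None of the 8 was called by edgeR, where 0% of genes were, and 0 of 8 had an unadjusted p under 0.05, against 7.94%. In 0 of 8 were the groups without overlap, against 0.911%. DESeq2 and limma voom called 0 of 8, against 0.00931% and 0% of genes. The log2 fold change was below 0 in 1 of 8 (49% over all genes), with a median of 0.11 against 0.00 over all genes.

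The acetylcholine enzymes lay near 0: Chat was at -0.02 ± 0.336 (interval -0.72 to 0.69, adjusted p = 0.991) and Ache at 0.05 ± 0.179 (interval -0.32 to 0.42, adjusted p = 0.944). The intervals still hold fold changes from 0.605 to 1.61 for Chat and from 0.799 to 1.34 for Ache. Slc18a3 had 0.07 ± 0.310, Slc5a7 0.17 ± 0.283 and Slc10a4 0.17 ± 0.254, with adjusted p-values of 0.957, 0.872 and 0.850. Ngfr had 0.00 ± 0.421 and Lhx8 0.15 ± 0.325. Gbx2 had the smallest p of the 8, at 3.28 ± 0.507 CPM in knockout and 2.61 ± 0.751 CPM in control mice (SD, n = 5 each), a log2 fold change of 0.33 ± 0.232 (interval -0.16 to 0.81, adjusted p = 0.671). Without saline control mouse 2, Slc18a3 turned to -0.08, Ache to -0.08, Ngfr to -0.20 and Lhx8 to -0.02, while Chat was at -0.17, Slc5a7 at 0.06, Slc10a4 at 0.06 and Gbx2 at 0.21. Without saline control mouse 4, Chat turned to 0.09, and Slc18a3 was at 0.26, Slc5a7 at 0.23, Slc10a4 at 0.24, Ache at 0.16, Ngfr at 0.21, Lhx8 at 0.27 and Gbx2 at 0.49. The authors' deposited table called 1 of 22804 genes (0.00439%) and 0 of the 8, with adjusted p-values from 0.900 to 0.999.

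Between knockout and control mice after amphetamine, none of the 8 was called by edgeR (0% of genes), and 0 of 8 had an unadjusted p under 0.05, against 12.8% of genes. In 0 of 8 were the groups without overlap, against 6.79%. DESeq2 and limma voom called 0 of 8, against 0.499% and 0% of genes. The log2 fold change was below 0 in 4 of 8 (49% over all genes), with a median of 0.07 against 0.00 over all genes. Ngfr had the largest difference, at 20.9 ± 12.3 CPM in knockout (SD, n = 4) and 15.0 ± 6.85 CPM in control mice (n = 5), or 0.49 ± 0.447 on the log2 scale (interval -0.46 to 1.43, adjusted p = 0.700). Lhx8 had 0.29 ± 0.346, Gbx2 0.18 ± 0.248 and Ache 0.16 ± 0.190. Chat (-0.09 ± 0.358), Slc18a3 (-0.18 ± 0.332), Slc5a7 (-0.03 ± 0.301) and Slc10a4 (-0.09 ± 0.270) were slightly below 0. Without amphetamine knockout mouse 3 these 4 genes turned to 0.24, 0.11, 0.28 and 0.18, and Ngfr was at 0.79, Lhx8 at 0.56, Gbx2 at 0.40 and Ache at 0.31. The lowest unadjusted p of the 8 was then 0.069 (Ngfr). With amphetamine knockout mouse 2 left out instead, Ngfr was at 0.08 and Ache at 0.02, Lhx8 turned to -0.10 and Gbx2 to -0.03, and Chat was at -0.34, Slc18a3 at -0.27, Slc5a7 at -0.22 and Slc10a4 at -0.30. Without amphetamine control mouse 3, Ngfr was at 0.24, Lhx8 at 0.10, Gbx2 at 0.08, Ache at 0.06, Chat at -0.24, Slc18a3 at -0.36, Slc5a7 at -0.17 and Slc10a4 at -0.23.

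The interaction, in which the response to amphetamine is compared between the genotypes, was not called for any of the 8 genes by edgeR (0% of genes), and 0 of 8 had an unadjusted p under 0.05, against 9.25% of genes. DESeq2 and limma voom called 0 of 8, against 0.0722% and 0% of genes. The difference was below 0 in 5 of 8 (49.1% over all genes), with a median of -0.11 against 0.01 over all genes. Chat had -0.07 ± 0.491 with an interval from -1.10 to 0.96, and Ngfr 0.48 ± 0.614 with an interval from -0.81 to 1.78, the widest of the 8. Ache had the narrowest interval, from -0.43 to 0.66 around 0.11 ± 0.261. Slc18a3 (-0.25 ± 0.454), Slc5a7 (-0.20 ± 0.413), Slc10a4 (-0.26 ± 0.371), Lhx8 (0.14 ± 0.475) and Gbx2 (-0.15 ± 0.340) lay between. Without amphetamine knockout mouse 3, Chat turned to 0.26, Slc5a7 to 0.11, Slc18a3 to 0.04, Slc10a4 to 0.01 and Gbx2 to 0.08, and Ngfr was at 0.78. Leaving out amphetamine knockout mouse 2 instead, Ngfr was at 0.08, Ache turned to -0.03 and Lhx8 to -0.25, and Chat was at -0.32, Slc5a7 at -0.39, Slc10a4 at -0.47, Slc18a3 at -0.34 and Gbx2 at -0.36. Without amphetamine control mouse 3, Lhx8 turned to -0.04 and Ngfr was at 0.25, and without saline control mouse 2, Chat turned to 0.08.

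The 8 genes had a similar order of mice, and some genes outside the 8 had it too. Over the 28 pairs of genes and 19 libraries, Pearson's r of log2 CPM ran from 0.756 (Chat and Ache) to 0.977 (Slc5a7 and Slc10a4), with a median of 0.882, and Spearman's rho from 0.653 to 0.909. Permutation p-values (two-sided) for Pearson's r ran from 1e-05, the smallest that 100000 permutations can give, to 0.0004, and the Benjamini-Hochberg adjusted values over the 28 pairs from 2e-05 to 0.0004. Those for rho reached at most 0.003, also when adjusted. Pairs with genes outside the 8 were not permuted. By Pearson's r with Ache, Chat ranked only 221 and Slc5a7 212 among the genes tested. With Slc18a3, Slc32a1, which is not of the 8, had a rho of 0.904, against 0.842 for Gbx2, the highest of the 8. With the 2 libraries farthest from the median left out, r ran from 0.594 (Chat and Gbx2) to 0.906. Saline control mouse 2, which was also low in all 8 genes, was kept there. These values therefore cannot show the pattern apart from all the mice with low levels. Without amphetamine knockout mouse 3 it ran from 0.724 to 0.954, and after subtracting each group's mean from 0.768 to 0.987.

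By Pearson's r over all 19 libraries, Chat had an r of 0.976 with Slc5a7, 0.943 with Slc10a4 and 0.941 with Slc18a3, all within the 4 highest among the 21513 genes tested. Its r was lower with Lhx8 (0.858, rank 24), Ngfr (0.830, rank 40), Gbx2 (0.811, rank 49) and Ache (0.756, rank 104). This order did not hold by rank or without the 2 libraries farthest from the median. Spearman's rho with Chat was 0.851 for Slc5a7, 0.789 for Ngfr, 0.754 for Ache, 0.718 for Gbx2, 0.705 for Lhx8, 0.686 for Slc10a4 and 0.653 for Slc18a3. With those 2 left out, Pearson's r was 0.861 for Slc5a7, 0.842 for Ngfr, 0.755 for Lhx8, 0.738 for Slc18a3, 0.728 for Ache, 0.704 for Slc10a4 and 0.594 for Gbx2. Slc5a7 was nearest to Chat of the 8 in each of these. Ngfr and Lhx8 had an r of 0.961 with each other. The labels call the tissue of every library only striatum, and the summed cortical markers ran from 133 to 1081 CPM between libraries. Library totals ran from 57003408 to 85536346 counts. The correlations are across mice, not across cells.

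**Figure D3:**
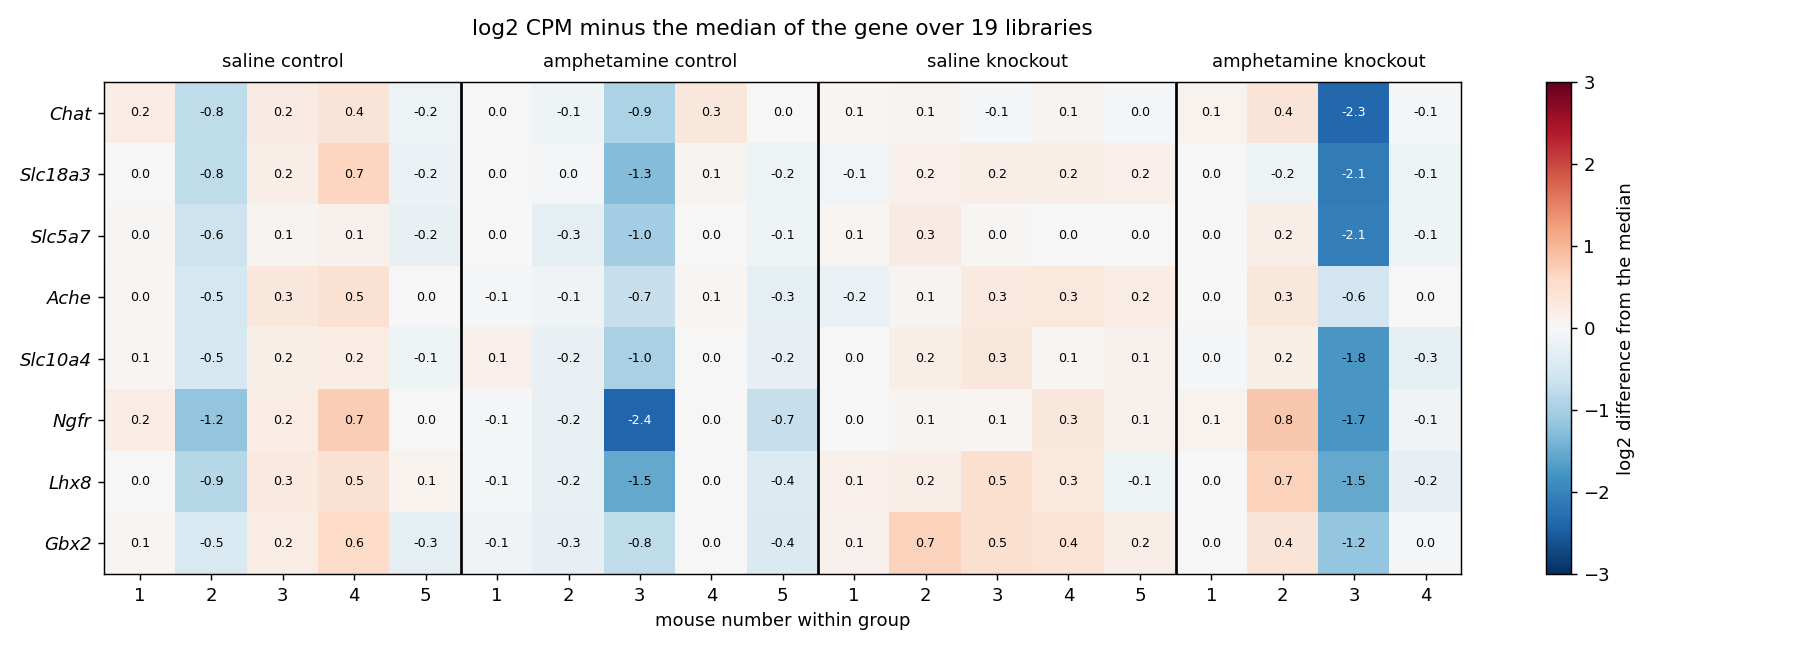
Log2 CPM of each gene (y axis, 8 genes) minus its median over the 19 libraries, for each mouse (x axis, mouse number within its group); blue is below and red above the median, and the numbers give the difference. Amphetamine knockout mouse 3, amphetamine control mouse 3 and saline control mouse 2 are blue in all 8 genes.

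Genes outside the 8 whose levels followed Chat closely included Clic6, an intracellular chloride channel family gene (r = 0.935, rho = 0.811), the long noncoding 2610028E06Rik (0.922, 0.732), the zinc finger factor gene Casz1 (0.922, 0.800) and Drd5, a dopamine receptor (0.921, 0.558). After subtracting group means they included Gbx1, a homeobox relative of Gbx2 (0.966, 0.819), Clic6 (0.958, 0.914), the synaptotagmin gene Syt2 (0.947, 0.846) and 2610028E06Rik (0.943, 0.812). Each r is over 19 libraries of log2 CPM. Clic6, at 13.2 to 50.3 CPM, is also on the list of choroid plexus markers. Ttr of that list was at 596 CPM in amphetamine knockout mouse 2, where Clic6 was highest. In saline knockout mouse 1, Clic6 was at 42.5 CPM and Ttr at 3.67 CPM. In saline control mouse 1, Clic6 alone made up 35.0 of the 42.8 CPM of the choroid plexus sum.

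By Pearson's r, some of 9 other genes of forebrain cholinergic neurons followed Chat more closely than Lhx8, and others followed Lhx8 more closely. Nkx2-1, a factor of the ventral forebrain that pallidal and septal neurons also carry, had an r of 0.686 with Chat and 0.936 with Lhx8. Lhx6, a factor of ventrally born interneurons, had 0.680 and 0.885. Isl1, the LIM-homeodomain partner of Lhx8, had 0.846 with Chat and 0.731 with Lhx8, and Slc17a8, a vesicular glutamate transporter carried by striatal cholinergic interneurons, had 0.744 and 0.426. By Spearman's rho the order for Chat was another: 0.716 with Lhx6, 0.651 with Nkx2-1, 0.628 with Isl1 and 0.279 with Slc17a8. The differences between these coefficients were not tested. The gene nearest to Lhx8 in level was AI606473 (ENSMUSG00000093738.3, r = 0.968, rho = 0.916), a long noncoding gene at chr3:154036458-154039891 (GRCm39). It did not overlap Lhx8 and lay 161 bases from the 5′ end of Lhx8, which runs on the minus strand. AI606473 and the comparison with Lhx8 were singled out after their values were seen.

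Beyond the 8, 33 genes on 3 lists were tested: the 9 cholinergic partners, 10 genes of choline supply and esterase anchoring, and 14 acetylcholine receptor genes. None (0 of 33) was called by edgeR in any comparison. With amphetamine in control mice, 2 had an unadjusted p under 0.05 upward and 5 downward (4.89% and 6.95% of all genes tested), and the 9 partners had 8 values below 0 with a median of -0.32. The smallest p-values were those of Chrna5, a nicotinic subunit (0.67 ± 0.204, adjusted p = 0.211), Chrm5, the muscarinic receptor of dopamine neurons (-0.97 ± 0.325, 0.252), and Chrna3, a nicotinic subunit abundant in the habenula (-0.76 ± 0.276, 0.286). Their levels were low, with means in that order of 0.996, 1.22 and 0.830 CPM after amphetamine and 0.624, 2.39 and 1.40 CPM after saline. In knockout mice, 2 of 33 had an unadjusted p under 0.05 upward and 1 downward (6.09% and 6% of all genes): Colq, which anchors Ache to the extracellular matrix (0.53 ± 0.215, adjusted p = 0.353), Bche, a second cholinesterase (0.56 ± 0.231, 0.362), and Isl1 (-0.54 ± 0.211, 0.338). Colq was low, at a mean of 0.752 CPM after amphetamine and 0.523 CPM after saline. All 9 partners were below 0, with a median of -0.29.

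Between genotypes, 0 of 33 genes had an unadjusted p under 0.05 upward and 1 downward under saline (3.79% and 4.15% of all genes). The smallest p-values belonged to Colq (-0.56 ± 0.205, adjusted p = 0.614), Bche (-0.36 ± 0.219, 0.641) and Pemt, an enzyme of phosphatidylcholine synthesis (0.30 ± 0.181, 0.641). Colq averaged 0.523 CPM in the knockout and 0.769 CPM in the control mice. After amphetamine, 2 had an unadjusted p under 0.05 upward and 3 downward (7.44% and 5.34% of all genes), and the smallest were those of Chrm4, the muscarinic receptor of direct-pathway neurons (-0.50 ± 0.197, adjusted p = 0.298), Slc17a8 (-0.53 ± 0.214, 0.305) and Prima1, which anchors Ache in the membrane (-0.61 ± 0.266, 0.346). For the difference of the response, 1 gene had an unadjusted p under 0.05 upward and 0 downward (5.2% and 4.05% of all genes), and Bche (0.70 ± 0.319, adjusted p = 0.534), Chrm5 (0.94 ± 0.465, 0.546) and Slc17a8 (-0.58 ± 0.292, 0.550) were the nearest.

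Markers of tissue that borders the striatum varied in the same libraries. The summed level of 9 septal and pallidal genes, the neighbouring regions with cholinergic neurons of their own, was 291 to 494 CPM in saline control, 158 to 323 CPM in amphetamine control, 397 to 587 CPM in saline knockout and 312 to 553 CPM in amphetamine knockout mice. Its lowest value was in amphetamine control mouse 3, and in saline control mouse 2 it was the lowest of that group. Amphetamine knockout mouse 3, with the lowest Chat of all, had 374 CPM, the second highest of its group and rank 11 of the 19. The genes of this list differed in that mouse. Gbx1 (2.72 CPM) and Nkx2-1 (4.48 CPM) were the lowest of the group, while Dlk1 (75.2 CPM) was the second highest. The 8 cortical projection neuron genes summed to 133 to 605 CPM, 378 to 967 CPM, 154 to 532 CPM and 155 to 1081 CPM in the same order of groups. The highest cortical sums of all 19, 1081 and 967 CPM, were in amphetamine knockout mouse 3 and amphetamine control mouse 3, and saline control mouse 2 had the highest of its group at 605 CPM. The 3 mice with the lowest cholinergic genes were thus each the highest of their group in cortical markers. Other mice had high cortical sums without such low levels. Saline control mouse 5 had 592 CPM, with Chat at 16.9 CPM. Amphetamine control mouse 2 (783 CPM) and amphetamine knockout mouse 4 (720 CPM) were above saline control mouse 2, with Chat at 17.3 and 18.0 CPM.

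The 10 striatal projection neuron genes summed to 2695 to 3880 CPM in saline control, 4053 to 5210 CPM in amphetamine control, 2166 to 4601 CPM in saline knockout and 1336 to 3928 CPM in amphetamine knockout mice. The lowest sum, 1336 CPM, was in amphetamine knockout mouse 3, while amphetamine control mouse 3 (4242 CPM) and saline control mouse 2 (3691 CPM) were within the range of their groups. The 7 GABAergic interneuron genes, markers of the other local neurons, summed to 331 to 442 CPM over all libraries and were highest in amphetamine knockout mouse 3.

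The remaining lists of other tissue moved in single libraries or groups. The 9 hypothalamic genes summed to 4.42 to 165 CPM in saline control, 2.86 to 22.2 CPM in amphetamine control, 59.0 to 128 CPM in saline knockout and 7.69 to 33.7 CPM in amphetamine knockout mice. Hcrt was at 0 in at least 1 library of each control group, and Sim1 in at least 1 of the amphetamine control group. The 5 choroid plexus genes reached 670 CPM in amphetamine knockout mouse 2, which also had the highest Ngfr and Lhx8, against 24.5 to 66.9 CPM elsewhere. The 6 ependymal genes were lowest in amphetamine control mouse 3 (11.9 CPM, with 46.3 CPM the highest of all). The sum of the 5 habenular genes was highest in amphetamine knockout mouse 3 (80.8 CPM, with 21.0 CPM the lowest). Nwd2 alone made up 60.2 CPM of that highest sum. Tac2 and Gpr151 of the same list were not at their highest in that mouse. The high sum therefore does not show that the habenular genes rose together. The 7 thalamic genes summed to 154 to 253 CPM and the 5 oligodendrocyte genes to 3275 to 6014 CPM over all libraries. The 6 perivascular and Schwann lineage genes, from cells that also carry Ngfr, summed to 33.5 to 103 CPM and were highest in amphetamine knockout mouse 3, where Ngfr was lowest of its group. Apart from Hcrt and Sim1, 0 of the listed genes were at 0 in any library. The part of these markers in the values of the 8 genes was not tested.

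**Figure D4:**
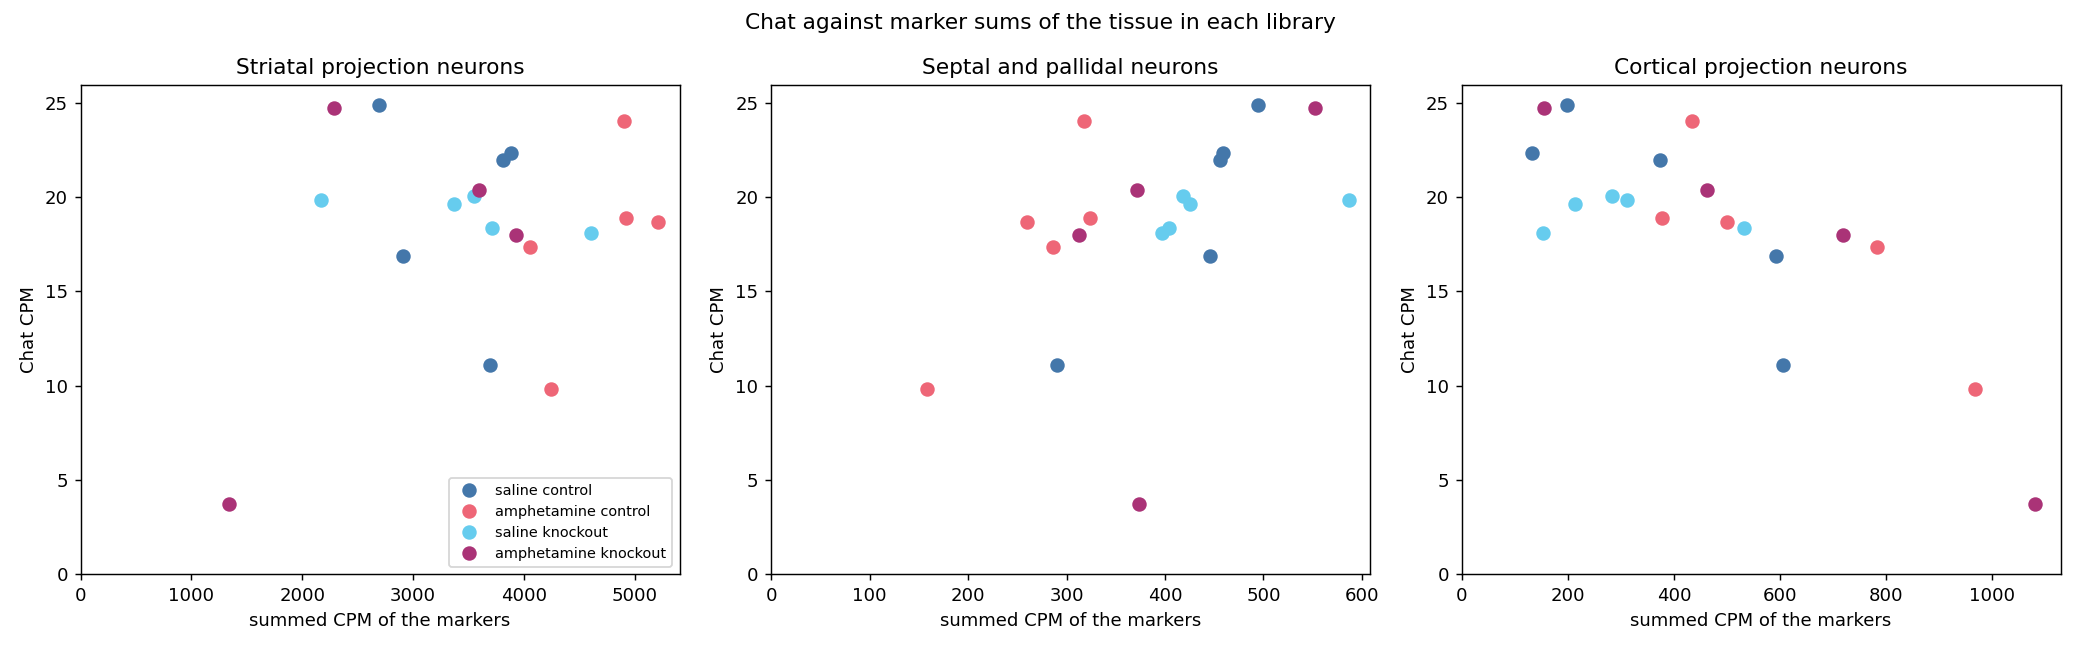
Chat in CPM (y axis) against the summed CPM of 10 striatal projection neuron, 9 septal and pallidal, and 8 cortical projection neuron markers (x axis, 1 panel each); points are the 19 mice, coloured by group. The lowest Chat, 3.71 CPM, is at the highest cortical sum of 1081 CPM and at the lowest projection neuron sum of 1336 CPM.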

How the data were processed

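The members and gene lists were chosen with earlier results of these data known. The authors deposited whole-number gene counts per mouse. The submitters' processing notes list GRCm39, HTSeq 0.6.1p2, STAR 2.6.0c, R 3.6.1, DESeq2 1.26.0s, Trim Galore 0.5.0 and FastQC 0.11.5. The FPKM values were deposited by the authors in 3 comparison tables, with a gene length that is not given in the sources used here, and the 10 FPKM columns that occur in 2 tables were identical. Those deposited tables also hold the authors' log2 fold changes with standard errors. Each p-value in the same deposited tables, raw or adjusted, is the authors' own. Settings, annotation release and strand use were not given in the sources used here. The count files held 0 lines for unassigned reads.

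Library totals were 65578294 to 75756345 counts in saline control, 57003408 to 80857642 in amphetamine control, 75449097 to 85536346 in saline knockout and 72759747 to 83149920 in amphetamine knockout mice. Counts were fitted in R 4.3.3 with edgeR 4.0.16 (filterByExpr, TMM, robust quasi-likelihood) as 4 group means over 19 libraries, with 5 contrasts and Benjamini-Hochberg adjustment over 21513 genes. Adjusted p-values are from this test unless the authors' table is named. Standard errors were taken as the fold change (log2) divided by the square root of F, and intervals are at 95%. Correlations used log2 CPM with a prior count of 2. The fit was tested on simulated counts with 200 changed genes. Alternatives were DESeq2 1.42.0 (size factors, Wald test), limma 3.58.1 (voom), no filter, only the groups compared, a block on mouse number and each library left out. A fit without the 5 libraries farthest out was added after seeing the data. All 8 genes were named whatever their result. From the 3 lists the rule was every gene called, otherwise the 3 smallest p-values in a comparison. For Chat it was the 5 nearest genes by Pearson's r, before and after subtracting group means, of which 1 gene is not reported here.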

Additional observations from a re-analysis of the deposited data

Results flagged for a closer look

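Of 32 sets of a gene and a group, 4 held a mouse whose gap to the nearest other exceeded the 95% limit of Dixon's test for its group size. For a single set, chance gives about 1 in 20. The sets are not independent, since the 8 genes were measured in the same mice and vary together, so the count was not tested against chance. Slc18a3, the vesicular transporter, was low in amphetamine control mouse 3 (3.684 CPM), where the other 4 mice lay between 8.12 and 9.59 CPM. It was low in amphetamine knockout mouse 3 (2.135 CPM), where the other 3 lay between 8.15 and 9.06 CPM. In saline knockout mouse 1 it was at 8.616 CPM, with the other 4 between 10.1 and 10.4 CPM, a small gap in a close group. Slc5a7, the choline transporter, was high in saline knockout mouse 2 (57.32 CPM), where the other 4 mice lay between 47.9 and 50.1 CPM. The first pair are the mice with low levels of all 8 genes and the highest cortical marker sums.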

How the results depend on the processing

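None of the 8 genes was called in any value, of which 40 came from the fit reported and 728 from alternatives, and 685 of the 728 kept their direction. The smallest adjusted p was 0.251 by edgeR. Genes called over the whole table numbered 1 with amphetamine in control mice, 1 in knockout mice and 0 in the other 3 comparisons. The DESeq2 Wald test called 214, 98, 2 (knockout under saline), 103 (knockout under amphetamine) and 14 (difference). Voom called 3 with amphetamine in knockout mice. The fit of only the groups compared called 75 in control mice and 0 in knockout mice. Without the 5 libraries farthest out (added after seeing the data) the counts were 39 in control mice, 2 in knockout mice and 1 between genotypes under amphetamine. By the mouse numbers in the titles, same-numbered mice correlated at -0.221 to 0.154 in their deviations, and 2 of 19 correlated best with their own number. The titles number the amphetamine knockout mice anew after the library left out. Pairing by the authors' own library numbers was therefore not fully tested for comparisons with these mice. With the replicate block, which used the title numbers, 5 genes were called with amphetamine in knockout mice. With each library left out, the counts were 0 to 4 with amphetamine in control mice, 0 to 3 in knockout mice and 0 in the others.

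In 43 of the 728 values the direction turned. For knockout against control under saline, Ngfr was -0.001244 with DESeq2 size factors, -0.001066 with DESeq2, -0.003763 with only the 2 groups and -0.009428 without the 5 libraries. Chat there was 0.03442 with voom and Ache -0.01253 without the 5 libraries. Without those 5, Slc5a7 was 0.0421 between genotypes under amphetamine, and the difference of the response was 0.001569 for Chat and -0.03537 for Lhx8. With each library left out, the log2 fold changes that turned in at least 1 case had these ranges. For amphetamine in control mice, Chat ran from -0.2747 to 0.01569. For amphetamine in knockout mice, Chat ran from -0.4515 to 0.1315 and Ngfr from -0.5112 to 0.1956. For knockout under saline, Chat ran from -0.1695 to 0.08694, Slc18a3 from -0.08388 to 0.2635, Ache from -0.07764 to 0.1566, Ngfr from -0.2004 to 0.2126 and Lhx8 from -0.0175 to 0.2684. For knockout under amphetamine, Chat ran from -0.3386 to 0.2444, Slc18a3 from -0.3623 to 0.1137, Slc5a7 from -0.2248 to 0.2755, Slc10a4 from -0.2986 to 0.1841, Lhx8 from -0.09923 to 0.5639 and Gbx2 from -0.03329 to 0.4034. For the difference of the response, Chat ran from -0.3213 to 0.2617, Slc18a3 from -0.4469 to 0.04454, Slc5a7 from -0.3934 to 0.1069, Ache from -0.02915 to 0.2581, Slc10a4 from -0.4701 to 0.0126, Lhx8 from -0.2489 to 0.4144 and Gbx2 from -0.3611 to 0.07563. The cause of these turns was not tested.

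Every library held at least 153 counts for 7 of the genes and at least 80 for Gbx2. The spread between mice, with 4 or 5 per group, left intervals that hold fold changes of 0.559 to 1.49 for Chat in control mice.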
